A study of Homo sapiens with 12 samples.

Results

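Clustered histone genes encode the replication-dependent core histones H2A, H2B, H3 and H4 and the linker histone H1, and they lie side by side in a few chromosomal clusters. They were taken as every row of the deposited count table whose symbol begins with HIST1H, HIST2H, HIST3H or HIST4H. This gave 19 of the 13853 genes of the table: 1 H1 gene, 5 H2A genes, 9 H2B genes, 3 H3 genes and 1 H4 gene. By cluster, 17 belonged to HIST1 on chromosome 6 and 1 each to HIST2 and HIST3 on chromosome 1, and no row came from HIST4. RefSeq lists 71 protein-coding genes in these clusters, so the 19 are a subset, and the other genes were not analysed here. All 19 passed the filter on low counts.

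Replication-dependent histone genes are transcribed in S phase, when new DNA is packed into nucleosomes. Their transcripts usually end in a stem-loop bound by the protein SLBP in place of a poly(A) tail, although some of these genes are known to give polyadenylated transcripts too, also in cells that do not divide. A nucleosome holds pairs of H2A, H2B, H3 and H4, and H1 binds the linker DNA between nucleosomes. GAS41, the protein of the gene YEATS4, reads acetylated histone H3 through its YEATS domain and is a subunit of complexes that place the variant H2A.Z into chromatin.

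The cells were H1299, a line from a human non-small cell lung carcinoma. The control group (shNT, 3 libraries) carried a control vector, and the knockdown group (shGAS41, 3 libraries) carried a short hairpin against GAS41. Per the labels' protocols the cells had been infected with viral vectors and selected with a drug before the experiments, so that both groups shared these treatments. The labels name 1 cell line and 1 knockdown construct name, and do not say whether libraries came from separate cultures. The p-values therefore rest on the spread among the libraries of a group, and that spread may be technical.

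Libraries held 58629147 to 72747010 counts over the listed genes. YEATS4 had 2820 to 3245 counts in the control libraries and 108 to 127 in the knockdown libraries, a log2 fold change of −4.68 ± 0.09 (SE), so the counts followed the labels. Of 19 marker genes, the epithelial keratins KRT8 and KRT18, the mesenchymal VIM and CDH2, and the fibroblast collagen COL1A1 were in the table, with COL1A1 at 0.817 ± 0.211 CPM in control cells. CPM stands for counts scaled to a common library size. The other 14, among them the epithelial EPCAM and CDH1, the lung lineage factor NKX2-1 and the leukocyte marker PTPRC, were not among the genes analysed here.

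After depletion of GAS41, 18 of the 19 clustered histone genes were higher and 1, HIST1H2BH, was lower. A call is an adjusted p under 0.05 by the quasi-likelihood test of edgeR, adjusted after Benjamini and Hochberg over all 13846 tested genes. Of these genes 68.1% were called, 33.6% as rising and 34.5% as falling. The median log2 fold change was 1.25 over the histone genes and −0.01 over all tested genes. Rises of at least 1 on the log2 scale were seen for 12 of the 19, against 6.4% of all tested genes. HIST1H2BF, HIST1H3D and HIST1H2AI, all among these 12, were under 1 CPM in every control library and above it in every knockdown library. If low genes were left out of the deposited table, these may be listed only through their knockdown values. How far this raised the counts of rises was not tested. The 3 knockdown values and the 3 control values did not overlap for any of the 19, as for 72.3% of tested genes. The knockdown values were the higher ones for 18 of the 19 and for 35.6% of tested genes. In bulk RNA, a change in the share of cells that express a gene and a change in RNA per cell cannot be told apart.

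**Figure D1:**
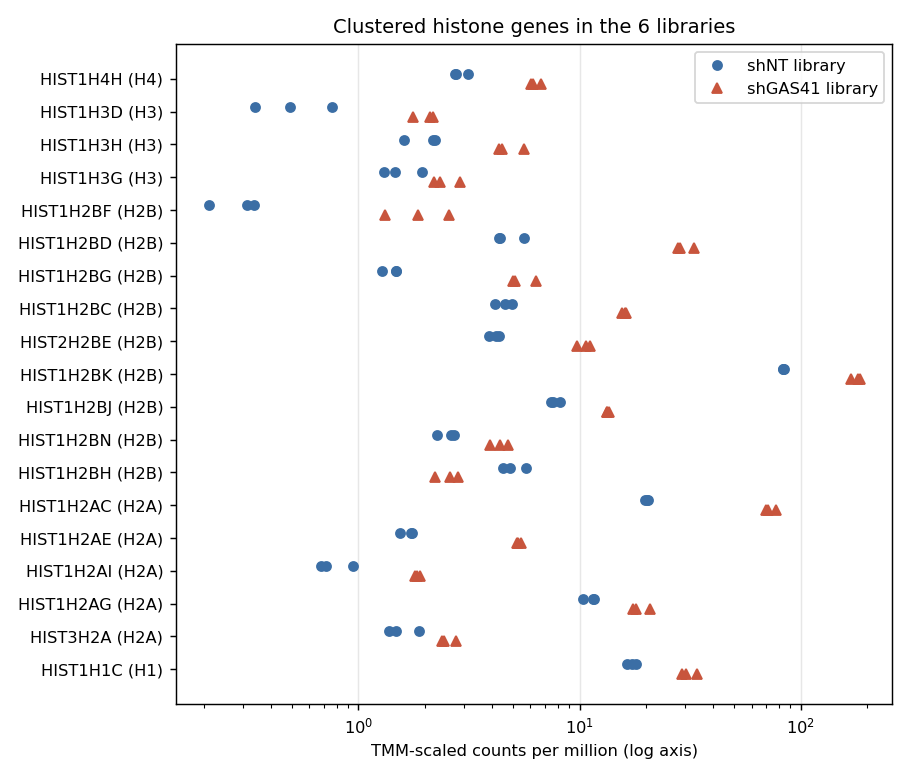
TMM-scaled CPM (log axis) of each clustered histone gene in the 3 shNT libraries (circles) and the 3 shGAS41 libraries (triangles), with the histone class in brackets. Triangles lie to the right of the circles for 18 genes and to the left for HIST1H2BH.

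The promoters of 5 genes are shown because they span the responses described next: a strong rise (HIST1H2BD), a rise from a low level (HIST1H2BG), the gene with the most reads (HIST1H2BK), the fall (HIST1H2BH), and an H2A gene that shares its promoter with an H2B gene (HIST1H2AC). Each sequence, from RefSeq on GRCh38.p14, runs 5′ to 3′ on the gene's strand from 250 bases before to 50 bases after the annotated start. Capitals mark every match on either strand to the octamer ATTTGCAT, the CCAAT box CCAAT, the TATA box TATAAA, the H1 box AAACACA and the E2F-like words TTTGGCGC and TTTCCCGC. Matches may overlap: TTTATAAA in HIST1H2BK counts as a TATA box on each strand. The windows are chr6:26157871-26158170 on the + strand for HIST1H2BD, chr6:26216639-26216938 on the − strand for HIST1H2BG, chr6:27146809-27147108 on the − strand for HIST1H2BK, chr6:26251364-26251663 on the + strand for HIST1H2BH and chr6:26123922-26124221 on the + strand for HIST1H2AC.
HIST1H2BD: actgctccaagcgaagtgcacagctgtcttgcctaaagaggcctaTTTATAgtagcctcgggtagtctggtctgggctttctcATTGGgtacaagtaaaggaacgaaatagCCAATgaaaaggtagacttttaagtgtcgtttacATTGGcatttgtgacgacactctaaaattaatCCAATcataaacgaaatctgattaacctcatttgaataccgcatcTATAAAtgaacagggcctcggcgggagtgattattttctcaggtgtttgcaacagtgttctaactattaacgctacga
HIST1H2BG: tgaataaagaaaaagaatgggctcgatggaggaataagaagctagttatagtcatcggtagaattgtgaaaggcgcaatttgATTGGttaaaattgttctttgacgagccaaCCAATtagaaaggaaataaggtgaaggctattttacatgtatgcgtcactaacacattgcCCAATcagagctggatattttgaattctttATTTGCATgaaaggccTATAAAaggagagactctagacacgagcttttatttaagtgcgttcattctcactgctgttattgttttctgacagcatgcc
HIST1H2BK: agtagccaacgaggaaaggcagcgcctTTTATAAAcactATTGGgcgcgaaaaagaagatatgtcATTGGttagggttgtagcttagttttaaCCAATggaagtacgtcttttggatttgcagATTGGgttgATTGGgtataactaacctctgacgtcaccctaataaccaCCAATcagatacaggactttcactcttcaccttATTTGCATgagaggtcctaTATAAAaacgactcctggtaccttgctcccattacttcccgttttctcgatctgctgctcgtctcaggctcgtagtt
HIST1H2BH: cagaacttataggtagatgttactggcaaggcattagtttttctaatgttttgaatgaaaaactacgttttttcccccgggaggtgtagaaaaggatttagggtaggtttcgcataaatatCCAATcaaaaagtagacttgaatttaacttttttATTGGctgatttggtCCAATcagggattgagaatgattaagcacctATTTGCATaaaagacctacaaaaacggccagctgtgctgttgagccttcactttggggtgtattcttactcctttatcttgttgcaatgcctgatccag
HIST1H2AC: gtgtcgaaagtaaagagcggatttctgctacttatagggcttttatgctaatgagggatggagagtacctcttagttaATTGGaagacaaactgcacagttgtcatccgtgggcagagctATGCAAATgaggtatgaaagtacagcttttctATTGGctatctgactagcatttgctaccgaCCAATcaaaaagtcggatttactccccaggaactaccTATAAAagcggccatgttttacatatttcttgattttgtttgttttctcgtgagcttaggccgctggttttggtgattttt

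All 19 genes had a promoter window in RefSeq, 13 matched by Ensembl identifier and 6 by an older symbol. A CCAAT box was present in 18 of the 19 windows, against 35.7% of 27305 human promoter windows of the same length, and the exception was HIST1H4H. The octamer, the word bound by OCT1 in H2B promoters, was present in 11 of the 19 and in 1.802% of all windows, with 7 of the 9 H2B genes among them. A TATA box match, anywhere in the window and on either strand, was present in 11 of the 19 and in 11.95% of all windows. For HIST1H2BC and HIST1H2AE the only match lay far upstream on the opposite strand, at −220 and −206. The H1 box occurred in HIST1H1C alone among the 19 and in 5.76% of all windows, and neither E2F-like word occurred in the 19 (0.659% and 1.66% of all windows). The windows of neighbouring genes overlap, so these counts are not independent. HIST1H2BH, the gene that fell, had the octamer 49 bases before its start (position −49), close to its place in HIST1H2BK (−46), which rose. HIST1H2BD, whose log2 fold change was 2.64 against 1.09 for HIST1H2BK, had no exact octamer match. Only exact words were searched, and its window holds ATTTGAAT, which differs in a single base, shortly before the TATA box. A TATA box at −28 in HIST1H2BD and at −27 in HIST1H2BK had no counterpart among the matches in HIST1H2BH. HIST1H2BH had no exact TATA box match anywhere in its window. The same held for 7 of the 18 genes that rose, HIST1H2BF with the largest log2 fold change among them. The HIST1H2BH window holds TACAAA, which differs from the TATA box in a single base, shortly after its octamer. Whether these words bear on the changes was not tested. These are matches of letters in these windows and were not measured as binding.

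H2B genes covered the widest range of change. H2B pairs with H2A in the nucleosome, and 8 of its 9 measured genes rose and 1 fell (median 1.35 on the log2 scale). HIST1H2BD had 5.60, 4.31 and 4.35 CPM in the control libraries and 33.1, 28.3 and 28.0 CPM in the knockdown libraries. All knockdown values lay far above all control values, and control library 1 was the highest of its group. That was a 6.27-fold change of the mean CPM and a log2 fold change of 2.64 ± 0.12 (adjusted p = 4.84e-08), where ± is the SE, rank 49 of 13846 from the largest rise. The RefSeq gene model of HIST1H2BD overlaps those of H2BC6-AS1 and LARP1P1, so reads of those regions could not be assigned with certainty. HIST1H2BF had a log2 fold change of 2.73 ± 0.31 (adjusted p = 2.35e-05), but from only 13 to 23 counts per control library. Its CPM was 0.313, 0.210 and 0.338 in control cells and 2.57, 1.32 and 1.85 after knockdown. The groups did not overlap, and knockdown library 1 was well above the other two of its group.

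HIST1H2BG rose from 1.48, 1.27 and 1.49 CPM to 4.99, 5.08 and 6.34 CPM, a log2 fold change of 1.95 ± 0.15 (adjusted p = 1.31e-06). HIST1H2BC rose from 4.16, 4.58 and 4.93 CPM to 16.1, 15.5 and 16.3 CPM (1.81 ± 0.09; adjusted p = 8.92e-08). HIST2H2BE, the single HIST2 gene, rose from 3.89, 4.34 and 4.17 CPM to 11.2, 9.74 and 10.7 CPM (1.35 ± 0.10; adjusted p = 9.44e-07). In each of these 3 genes every knockdown library was well above every control library, and the spread within a group was small beside the gap. HIST1H2BK rose from 84.3, 83.3 and 83.2 CPM to 168, 181 and 186 CPM, a smaller log2 fold change of 1.09 ± 0.05 with the smallest SE of the 19 (adjusted p = 4.92e-08). The RefSeq gene model of HIST1H2BK overlaps that of H4C9, so reads of that region could not be assigned with certainty. HIST1H2BJ (0.80 ± 0.08) and HIST1H2BN (0.78 ± 0.13) rose least among the H2B genes.

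HIST1H2BH was the exception in direction. It had 4.83, 5.72 and 4.51 CPM in the control libraries and 2.83, 2.60 and 2.22 CPM in the knockdown libraries. Every knockdown library was below every control library, with 128 to 187 counts against 267 to 355. This was a change of −0.97 ± 0.14 on the log2 scale (adjusted p = 0.000131).

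All 5 measured H2A genes rose (median 1.25 on the log2 scale). HIST1H2AC had 19.8, 20.4 and 20.1 CPM in the control libraries and 77.5, 71.3 and 69.6 CPM after knockdown. The control values differed by less than 1 CPM, and the log2 fold change was 1.86 ± 0.06 (adjusted p = 8.20e-09), the smallest adjusted p of the 19. HIST1H2AE rose from 1.74, 1.73 and 1.54 CPM to 5.19, 5.46 and 5.28 CPM (1.67 ± 0.12), and HIST1H2AI from 0.680, 0.710 and 0.945 CPM to 1.84, 1.797 and 1.89 CPM (1.25 ± 0.19). HIST1H2AG, at 10.4 to 11.6 CPM in control cells and 17.5 to 20.8 CPM after knockdown, rose by 0.75 ± 0.09 on the log2 scale. HIST3H2A, the single HIST3 gene, had 1.88, 1.37 and 1.49 CPM in control cells and 2.44, 2.38 and 2.77 CPM after knockdown. Its groups were close but did not overlap, and its rise of 0.67 ± 0.17 had an adjusted p of 0.00435.

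The 3 measured H3 genes, whose product carries the acetylated tail that GAS41 reads, rose by 0.65 to 1.90 on the log2 scale. HIST1H3D had 0.761, 0.339 and 0.489 CPM in control cells and 2.11, 1.77 and 2.17 CPM after knockdown (1.90 ± 0.26). Its RefSeq gene model overlaps that of H2AC7, an H2A gene, so reads of that region could not be assigned with certainty. HIST1H3H rose from between 1.60 and 2.22 CPM to between 4.31 and 5.61 CPM (1.25 ± 0.16). HIST1H3G went from 1.94, 1.47 and 1.30 CPM to 2.89, 2.20 and 2.34 CPM. This was the weakest call of the 19, with a log2 fold change of 0.65 ± 0.19 and an adjusted p of 0.0113, and control library 1 came near the lowest knockdown library. HIST1H4H, the single H4 gene, rose from 2.73, 2.76 and 3.14 CPM to 6.13, 6.06 and 6.72 CPM (1.13 ± 0.11; adjusted p = 8.54e-06). HIST1H1C, which encodes the linker histone H1.2, rose from 16.4, 17.3 and 18.01 CPM to 34.1, 29.1 and 30.2 CPM (0.85 ± 0.08; adjusted p = 4.41e-06).

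**Figure D2:**
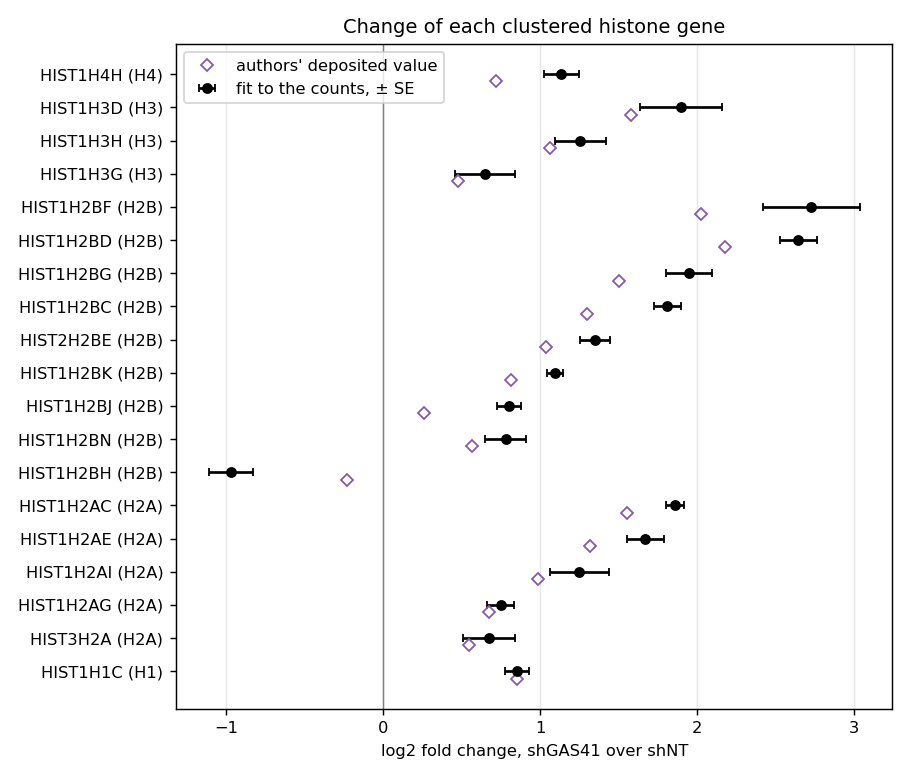
Log2 fold change of knockdown over control for each gene, fitted to the counts (filled points, bars ± SE) and as given in the authors' deposited table (open diamonds). The fitted values run from −0.97 (HIST1H2BH) to 2.73 (HIST1H2BF), and every diamond lies nearer to 0 than its filled point.

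Summed over the 19 genes, the level was 174, 173 and 173 CPM in the control libraries and 415, 404 and 412 CPM in the knockdown libraries, 2.36-fold higher (173.5 ± 0.722 against 410.3 ± 5.66, mean ± SD, n = 3 each). This sum is not corrected for gene length and is dominated by HIST1H2BK, which took 48.2 ± 0.164% of it in control cells and 43.5 ± 2.55% after knockdown. Without that gene the sum was 2.58-fold higher. By class, the fold was 2.87 for H2A, 2.30 for H2B, 2.26 for H3, 2.19 for H4 and 1.81 for H1. Single genes set the order of H2A and H2B: the 4 H2A genes other than HIST1H2AC summed to 15.2 ± 0.876 CPM before and 28.4 ± 1.58 CPM after knockdown, 1.87-fold. The 8 H2B genes other than HIST1H2BK went from 30.4 ± 0.792 to 84.0 ± 4.01 CPM, 2.76-fold. Both subsets were chosen after the values were seen. The composition of the reads moved as well. HIST1H2BD went from 2.74 ± 0.411 to 7.26 ± 0.627% of the summed CPM and HIST1H2AC from 11.6 ± 0.228 to 17.7 ± 0.884%. HIST1H2BH went from 2.89 ± 0.366 to 0.621 ± 0.0740%. These sums and shares are descriptions and were not tested.

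**Figure D3:**
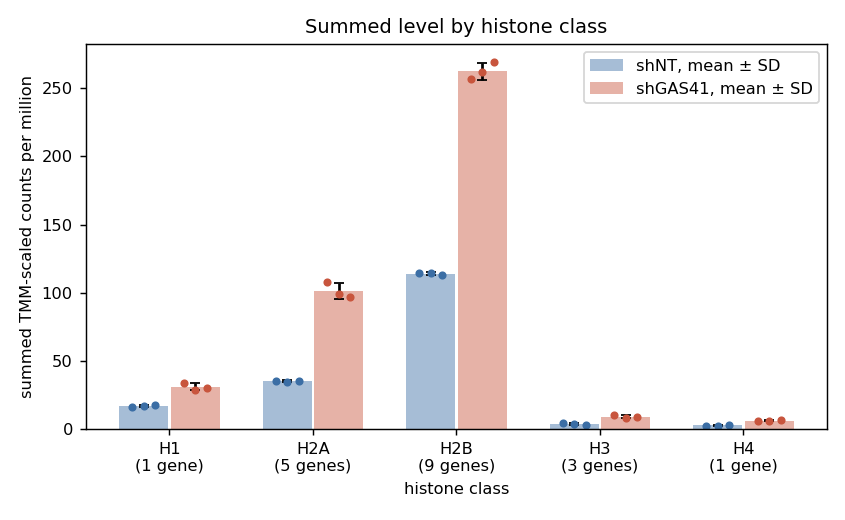
TMM-scaled CPM summed over the measured genes of each histone class; bars are means of 3 libraries, error bars are SD and points are libraries. Every class is higher in the knockdown libraries, from 1.81-fold for H1 to 2.87-fold for H2A, and H2A without HIST1H2AC is 1.87-fold higher.

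Along chromosome 6 the HIST1 genes fall into 3 blocks, split where neighbouring histone genes lie over 500 kb apart. In the block nearest the short-arm end 10 of 11 measured genes rose and HIST1H2BH fell (median 1.81). A run of 7 neighbouring measured histone genes there, from HIST1H2BC to HIST1H2AE, had log2 fold changes between 1.67 and 2.73. The ends of this run were set after the values were seen, and histone genes that were not measured may lie within it. HIST1H1C stood before the run at 0.85. HIST1H2BH, HIST1H3G and HIST1H4H followed at −0.97, 0.65 and 1.13. In the middle block, HIST1H2BJ, HIST1H2AG and HIST1H2BK all rose, with a median of 0.80. In the far block, HIST1H2AI, HIST1H3H and HIST1H2BN all rose, with a median of 1.25. The blocks were not tested against each other.

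Non-histone genes of the region moved in both directions. Of 16 measured non-histone neighbours of HIST1, 5 rose, 8 fell and 3 were not called, and their median change was −0.21 on the log2 scale. Over all tested genes 33.6% rose and 34.5% fell, with a median change of −0.01. The count of rises was near the general share, and the count of falls was above it. The largest rises were in the butyrophilin genes BTN3A1 (1.63 ± 0.11), BTN3A3 (1.54 ± 0.14) and BTN3A2 (1.17 ± 0.14), the last named after its value was seen. Butyrophilins of this group present phosphoantigen signals to gamma-delta T cells. HMGN4, which encodes a nucleosome-binding protein, fell by 1.12 ± 0.04, and BTN2A1 fell by 0.70 ± 0.06. The count of 5 rises was 3 without control library 2. HFE, which lies between HIST1H1C and HIST1H2BC in the order of measured genes, was not called, with 12.9 ± 1.66 CPM before and 11.9 ± 1.72 CPM after knockdown (adjusted p = 0.419).

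**Figure D4:**
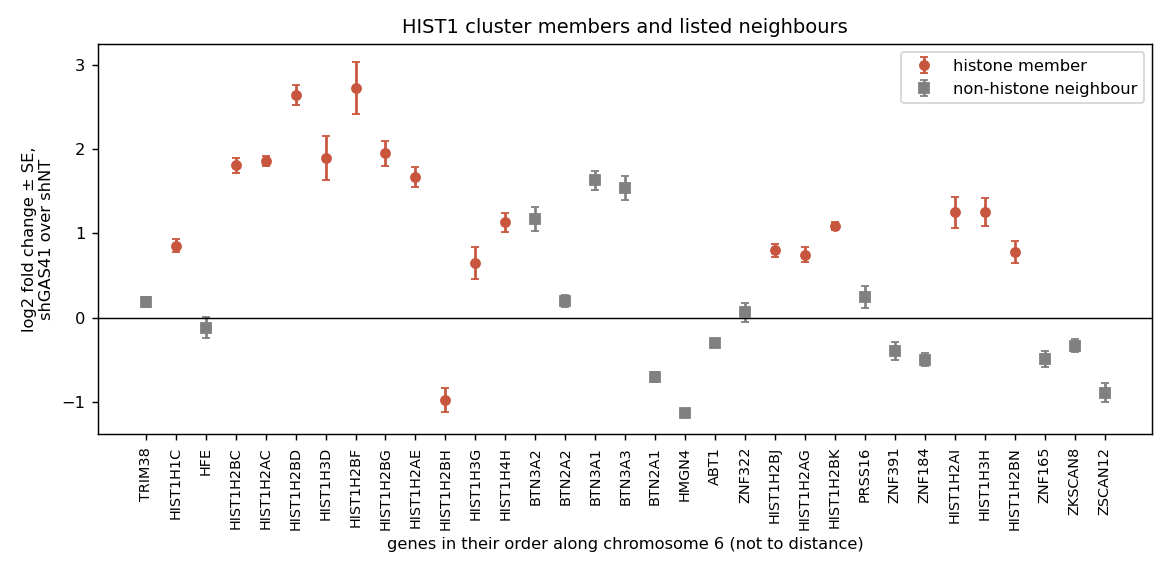
Log2 fold change ± SE of the 17 measured HIST1 genes (circles) and of 16 measured non-histone neighbours (squares), in their order along chromosome 6 and not to distance. Histone genes lie above 0 except HIST1H2BH, while neighbours lie on both sides, from −1.12 (HMGN4) to 1.63 (BTN3A1).

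Many H2A and H2B genes stand head to head and share the sequence between their starts. Among the 19 there were 4 head-to-head pairs by annotated start, with 223 to 248 bases between the starts. The partners HIST1H2BC and HIST1H2AC rose by 1.81 ± 0.09 and 1.86 ± 0.06, and the log2 ratio of the first to the second was −2.15 ± 0.110 (SD) in control and −2.19 ± 0.0874 in knockdown libraries. HIST1H2BJ and HIST1H2AG rose by 0.80 ± 0.08 and 0.75 ± 0.09, with a log2 ratio of −0.53 ± 0.159 before and −0.48 ± 0.114 after. HIST1H2BG and HIST1H2AE rose by 1.95 ± 0.15 and 1.67 ± 0.12, and their log2 ratio went from −0.24 ± 0.195 to 0.03 ± 0.199. In these 3 pairs the ratio moved by 0.27 or less. HIST1H3D and HIST1H2BF, both of low counts, differed more: their log2 ratio went from 0.84 ± 0.394 to 0.12 ± 0.364. The RefSeq model of HIST1H3D overlaps that of the H2A gene H2AC7, so this pair rests on the annotated start of that model. Whether H2AC7 is the partner of HIST1H2BF there was not examined. Exact two-sided permutation tests of the 4 ratios gave p = 0.6, 0.8, 0.3 and 0.1 in the order given (0.8, 0.8, 0.6 and 0.4 after Benjamini-Hochberg adjustment). With 3 against 3 libraries this test cannot give a p below 0.1 for a shift of any size, so it does not show whether a ratio moved.

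The authors' deposited table gave the same direction for all 19 genes and a smaller size for each. The authors' deposited table called 13 of the 19 at an adjusted p under 0.05, all of them higher, against 33.2% of its genes called and 18.6% called higher. The median log2 fold change of the 19 in the authors' deposited table was 0.98. The gap was largest for HIST1H2BH, at −0.235 in the authors' deposited table (adjusted p = 0.293), and HIST1H2BJ stood at 0.26 there (adjusted p = 0.702) against 0.80 from the counts. HIST1H1C differed least, with 0.849 in the authors' deposited table and 0.85 from the counts. Over all tested genes the authors' deposited values lay above the fitted ones by a median of 0.13, the opposite sign to the histone genes (−0.31). Which model gave the authors' values was not given in the sources used here.

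In several lists of genes that act with histones or in S phase, more genes fell than rose. Over all tested genes 34.5% fell and 33.6% rose, the shares to set beside each list. Of 20 S phase genes all 20 fell and their median change was −1.02 on the log2 scale. They include thymidine kinase TK1 (−1.50 ± 0.05) and the helicase factor CDC45 (−1.38 ± 0.05). Of 20 genes for cleavage of histone pre-mRNA at the stem-loop, 15 fell and 2 rose (median −0.30). Some genes stand in more than 1 list, such as ERI1 and MCM2. CSTF2, a cleavage factor subunit, fell from 71.1 ± 1.50 to 34.7 ± 2.74 CPM and SNRPB, a core protein of small nuclear RNPs, fell by 0.89, whereas NCBP2 of the cap-binding complex (0.26) and the scaffold gene SYMPK (0.16) rose. SLBP, named after its value was seen, had 152, 174 and 176 CPM in control and 116, 125 and 130 CPM in knockdown libraries, a log2 fold change of −0.44 ± 0.06 (adjusted p = 0.000153). LSM11, a component of the U7 particle, was not called (0.24 ± 0.11; adjusted p = 0.0807).

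Of 15 genes of the histone locus body and of histone gene transcription, 9 fell and 2 rose (median −0.16). Only 6 fell without control library 2, without control library 3 or with upper-quartile scaling. In the main result 34.5% of all tested genes fell and 33.6% rose. E2F1 fell by 1.36 ± 0.08 and CDK2, the kinase that acts on the histone gene coactivator NPAT, by 0.75 ± 0.05, while the coilin gene COIL (0.32) and NFYC, a subunit of the CCAAT-binding factor NF-Y (0.28), rose. NPAT itself, named after its value was seen, went from 42.04 ± 0.838 to 29.8 ± 1.27 CPM (−0.50 ± 0.06). POU2F1, which encodes the octamer-binding factor OCT1, was not called (−0.16 ± 0.10; adjusted p = 0.167), and neither was HINFP, a factor for H4 genes (0.08 ± 0.06; adjusted p = 0.271). Of 12 genes of histone mRNA decay, 7 fell and 2 rose, with a median of −0.29. UPF1, an RNA helicase of that pathway, fell from 232 to 123 CPM and the exonuclease gene ERI1 fell by 0.83, whereas the decapping gene DCP2 rose from 71.8 ± 9.91 to 151 ± 3.54 CPM. DCP1A rose by 0.18 (adjusted p = 0.0201), and its call was lost without control library 1 or 2 or knockdown library 2 or 3 (adjusted p of 0.0551 to 0.0676).

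Of 15 genes for poly(A) tail formation 12 fell and 0 rose (median −0.27), against 34.5% falling and 33.6% rising over all tested genes. Among those that fell were FIP1L1 (−0.55 ± 0.06) and CPSF7 (−0.46 ± 0.04). Of 9 measured histone variant genes outside the clusters, whose transcripts are mostly polyadenylated, 6 fell and 0 rose (median −0.53). H1FX, a linker histone variant, fell from 102, 105 and 94.6 CPM to 43.6, 42.3 and 43.2 CPM. H2AFX, which encodes the damage-marked H2A.X and has both transcript types, fell from 183, 175 and 158 CPM to 83.4, 74.7 and 83.2 CPM. The H3.3 gene H3F3A was not called (0.01 ± 0.05; adjusted p = 0.851). Of 21 histone chaperone and import genes 16 fell and 3 rose, with a median of −0.63. MCM2 (−1.32 ± 0.05), which binds H3 and H4 at forks, and the FACT subunit gene SUPT16H (−0.96 ± 0.04) fell, and ATRX (0.66 ± 0.09) and CABIN1 (0.63 ± 0.05), both tied to H3.3 deposition, rose. How RNA was selected was not given in the sources used here. The part that the share of polyadenylated histone transcripts, or the lower S phase genes, may have in the higher histone counts was not tested.

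**Figure D5:**
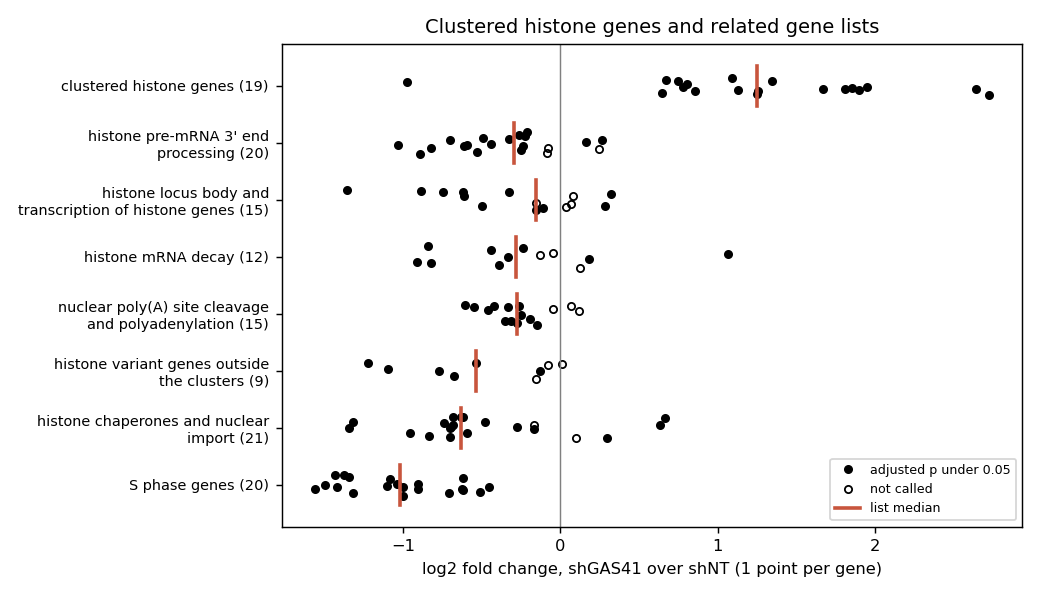
Log2 fold change of each gene (1 point per gene, filled where the adjusted p was under 0.05) in the clustered histone genes and in 7 related lists, with the list median as a vertical bar. The histone genes have a median of 1.25, while the 7 other medians lie between −1.02 (S phase genes) and −0.16 (histone locus body and transcription).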

How the data were processed

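RNA sequencing libraries of H1299 cells (3 shNT, 3 shGAS41) were analysed from 1 deposited table, which holds raw counts per Ensembl gene and library made by the authors. It also holds the authors' deposited log2 fold change, p-value and adjusted p-value per gene, which were copied and not recomputed. Per the submitters' processing notes, the build was hg19 and the tools of the series were TopHat2 2.0.10, HTSeq, Bowtie2 2.1.0, CASAVA 1.8.2 and MACS 1.4.2, with no roles given. Annotation release and use of strand were not given in the sources used here. Antisense or overlapping genes may therefore be counted together, and near-identical histone copies may share reads. RefSeq models overlap for HIST1H2BK (with H4C9), HIST1H3D (with H2AC7) and HIST1H2BD (with H2BC6-AS1 and LARP1P1).

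Counts were fitted with edgeR 4.0.16 (limma 3.58.1, R 4.3.3) by the quasi-likelihood test with TMM scaling, filterByExpr (7 genes left out), robust dispersion and Benjamini-Hochberg adjustment at 0.05, without a replicate block. CPM used TMM-scaled library sizes, and ± beside a CPM is the SD of 3 libraries. The SE is the log2 fold change divided by the square root of F. The biological coefficient of variation was 7.58%. The code was tested on simulated counts in which few genes changed. That test does not cover data in which most genes are called, as here. All 19 histone genes could be named. In each of 11 context lists (marker genes and neighbours included) up to 2 rising and 2 falling genes of smallest p were named, and other names are identified as chosen after their values were seen or as not called. One gene that this rule names is not reported here. The members and lists were chosen with earlier results of these data known. Promoters came from RefSeq (GRCh38.p14). The 14 alternatives were DESeq2 1.42.0, limma-voom, 3 other scalings, 2 other filters, a replicate block and leaving out each library. The 6 chromatin immunoprecipitation samples were not analysed here.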

Additional observations from a re-analysis of the deposited data

How the results depend on the processing

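In each of the 14 alternatives 18 of the 19 histone genes rose and HIST1H2BH fell, with all 19 calls kept, and their median log2 fold change lay between 1.15 and 1.30. The highest adjusted p in any alternative was 0.0453, for HIST1H3G. Over all genes 8518 to 10394 were called. The log2 ratio of the summed CPM of the 19 genes was 1.24, and it was 1.22 with library totals alone and 1.29 with upper-quartile scaling. Falling genes of the histone locus body list numbered 6 to 10 over the alternatives. Among the related lists, rising genes of histone mRNA decay numbered 1 to 2 and rising HIST1 neighbours 3 to 5 when 1 library was left out. Of the poly(A) genes, 1 was called as rising with upper-quartile scaling and 1 with the replicate block, against 0 in the main result. The replicate block kept the 18 rises and 1 fall. Same-numbered libraries deviated together with r = 0.45, 0.08 and 0.09 over 13846 genes, and not every library correlated best with its own number, so the numbers were not taken as pairs. Low depth limits HIST1H2BF, HIST1H3D and HIST1H2AI, with at most 56 counts in a control library.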

Other observations

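Of 7 measured neighbours of the HIST2 cluster 5 fell and 0 rose (median −0.55 on the log2 scale), while HIST2H2BE rose by 1.35. VPS45, a gene of vesicle fusion, fell by 0.76 ± 0.06 and ANP32E, which encodes a chaperone that removes H2A.Z from chromatin, went from 198 to 132 CPM (−0.59 ± 0.06). Around HIST3 and HIST4H4, 4 of 12 measured neighbours rose and 6 fell, with a median of −0.30. For both sets of neighbours, the shares over all tested genes were 33.6% rising and 34.5% falling. Among the neighbours of HIST3 and HIST4H4, ATF7IP rose by 0.32. WBP11, a splicing factor gene, fell by 0.44, and C1orf35 fell by 0.50.

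Of the 5 marker genes in the table, KRT8 (−0.67 ± 0.04) and KRT18 (−0.44 ± 0.04) fell, and VIM (0.22 ± 0.03), CDH2 (0.25 ± 0.05) and COL1A1 (1.04 ± 0.22) rose, COL1A1 being named after its value was seen. Among the knockdown libraries, library 1 held the highest CPM for 10 of the 19 histone genes and for 40.1% of all tested genes. Among the control libraries it did so for 7 of the 19 and for 37.5% of all tested genes.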
